A study of Mus musculus with 18 samples.

Results

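The genes described here are 8 transcription factors of the AP-2 and GATA families, measured by RNA sequencing in mouse embryonic stem (ES) cells grown in 3D culture. They are Tfap2a, Tfap2b, Tfap2c and Tfap2e of the AP-2 family and Gata2, Gata3, Gata4 and Gata6 of the GATA family. Their rows were found by Ensembl identifier among the 49671 genes of the count table, and all 8 were present. The set was picked because Tfap2a differed strongly between the cultures, so the levels of Tfap2a are given as a description without a test. For the other 7 genes the same levels were tested across the whole table, with results of these data already known when they were picked.

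Both families bind DNA directly and act in the earliest decisions of the embryo. AP-2 proteins bind as dimers to palindromic GC-rich sites. Tfap2c is a regulator of the trophoblast, the lineage that forms the placenta, and of germ cells, and Tfap2a and Tfap2b act in surface ectoderm and neural crest. GATA factors bind the letters GATA through zinc fingers. Gata3 and Gata2 act in trophoblast, Gata2 also in blood stem cells, and Gata4 and Gata6 specify the primitive endoderm, the lineage that forms the yolk sac. ES cells stand for the third lineage, the epiblast, in which most of these genes are low.

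The wild-type cells were of the line E14 (labelled strain 12910la) and were embedded in growth factor depleted Matrigel in N2B27 medium for 48 h, with 3 samples per culture. DMSO is the solvent control, CH is 3 µM CHIR99021, which blocks the kinase Gsk3 and so turns on Wnt/β-catenin signalling, and 2i is 3 µM CHIR99021 with 0.4 µM PD0325901, an inhibitor of Mek. The fourth culture, Fgf2/Activin, held Fgf2 at 12 ng/ml together with Activin A at 20 ng/ml. The other 6 samples were of an Esrrb fl/fl ES line carrying a tamoxifen-inducible Cre and labelled as derived from Acr-EGFP transgenic mice. Of these, 3 had been exposed to 4-hydroxytamoxifen (4OHT) for 1 day to delete Esrrb, an orphan nuclear receptor of naive pluripotency, and 3 had not, and both groups were then grown for 24 h in 3D in 3 µM CHIR99021. Every line had been kept in 2i with Lif before the experiment. Line, passage and time in culture differ together between the 12 wild-type and the 6 Esrrb fl/fl samples and cannot be told apart, so levels are shown side by side and tests stay within each line. There was no group with 4OHT and without the floxed allele, so exposure to 4OHT and deletion of Esrrb cannot be told apart either.

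Between 19915222 and 20140699 reads were counted on genes in the Esrrb fl/fl samples and between 25388139 and 37158661 in the wild-type samples. Pou5f1, which defines pluripotent cells, lay between 532.7 and 1268 CPM (the normalised read count, scaled to one common library size) in all 18 samples. Esrrb itself was counted 2680, 2146 and 2109 times without 4OHT and 1211, 1333 and 1250 times after it. The remaining counts do not show how complete the deletion was, since the table counts the whole gene. In all 6 groups replicate 1 stood apart from replicates 2 and 3, since its counts differed from theirs by 11.8 to 65.9 (chi-square divided by the number of genes) and theirs from each other by 1.47 to 8.57. The highest value was in DMSO, where Nanog, a naive pluripotency factor, was at 67.9, 5.92 and 2.78 CPM. Results without replicate 1 of every group are given below. CPM values use library sizes scaled by TMM, a normalisation for RNA composition. A gene is called where edgeR's quasi-likelihood test gave a Benjamini-Hochberg adjusted p-value under 0.01 over all genes tested and the log2 fold change exceeded 1 in size. Nothing in the labels says whether samples of a group were separate cultures, so p-values measure the spread between these samples. In RNA from a whole culture, fewer cells expressing a gene and less RNA per cell cannot be told apart.

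The sequences before the start sites are shown for Tfap2a, which separates the cultures, for Gata2, which changed with 4OHT, and for Gata3, whose window held the most AP-2 sites of the set. RefSeq's promoter table on GRCm38.p6 had 7 start sites for 5 of the 8 genes (Tfap2a, Tfap2b, Tfap2e, Gata2 and Gata3). The 250 bases before each were searched on both strands for GCCNNNGGC (the palindrome bound by AP-2), for AGATAA (a site of GATA factors), the variant TGATAA, the variant AGATAG and the variant TGATAG, for CTTTGA (the Wnt effectors TCF/LEF) and for AAGGTCA (the half-site of Esrrb). Capitals mark matches. The windows are chr13:40734921-40735170 on the minus strand for Tfap2a, chr6:88193641-88193890 on the plus strand for Gata2 and chr2:9878601-9878850 on the minus strand for Gata3.
Tfap2a: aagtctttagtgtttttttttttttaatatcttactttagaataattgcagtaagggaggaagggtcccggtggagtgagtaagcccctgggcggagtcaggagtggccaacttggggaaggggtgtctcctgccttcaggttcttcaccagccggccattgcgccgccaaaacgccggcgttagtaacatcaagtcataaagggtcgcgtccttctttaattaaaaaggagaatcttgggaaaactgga
Gata2: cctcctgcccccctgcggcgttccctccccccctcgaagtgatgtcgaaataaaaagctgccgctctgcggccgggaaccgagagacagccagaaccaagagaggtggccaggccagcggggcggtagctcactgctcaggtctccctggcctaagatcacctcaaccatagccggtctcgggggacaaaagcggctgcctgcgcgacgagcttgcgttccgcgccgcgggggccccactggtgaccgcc
Gata3: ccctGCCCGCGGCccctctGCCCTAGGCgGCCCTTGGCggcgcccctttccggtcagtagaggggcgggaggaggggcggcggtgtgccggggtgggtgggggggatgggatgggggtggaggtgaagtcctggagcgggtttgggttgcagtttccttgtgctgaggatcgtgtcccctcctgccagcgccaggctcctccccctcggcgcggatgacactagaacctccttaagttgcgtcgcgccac

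The Gata3 window held 3 copies of the AP-2 palindrome, GCCCGCGGC at bases -246 to -238 before the start, GCCCTAGGC at -231 to -223 and GCCCTTGGC at -221 to -213. The pattern GCCNNNGGC reads the same on both strands, so each match was counted once. The second start site of Gata2 had 1 copy, GCCCACGGC, at -222 to -214, and 13.7% of all 32851 windows of this length in the table held at least 1. All 250 bases of that Gata2 window lay in exons of Gata2 itself. The Gata3 window lay wholly, with 250 bases, in exons of the opposite-strand gene Gm13256. A GATA match was found only before Tfap2e (AGATAG at -65 to -60), against 26.5% of all windows with any of the 4 forms. CTTTGA (13.8% of all windows) and AAGGTCA (4.08%) were found in none of the 7 windows. These are matches of letters, not binding sites, and a window without a match says nothing about the factor. By base composition the windows of Gata3 and Gata2 shown were 70.0% and 67.2% G or C, with 19 and 22 CpG dinucleotides, and that of Tfap2a was 47.6% with 10, against medians of 52.4% and 6 over all windows.

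The genes lie at chr13:40715302-40738376 (Tfap2a, minus strand), chr1:19208914-19238576 (Tfap2b, plus), chr2:172549593-172558622 (Tfap2c, plus) and chr4:126716006-126736240 (Tfap2e, minus) on GRCm38. The GATA genes are at chr6:88193891-88207032 (Gata2, plus), chr2:9857078-9890034 (Gata3, minus), chr14:63198922-63271692 (Gata4, minus) and chr18:11052064-11085635 (Gata6, plus). All are protein-coding in the GENCODE annotation. The counts ignore strand, so reads of a gene and of an overlapping antisense gene cannot be told apart. For Tfap2a, 14.6% of exon bases were shared with the opposite-strand genes Gm47061, Gm26688 and Gm47067, and stretches of its transcripts matched 9 other genes over at least 75 bases at 95% identity. Of the overlapping 3, Gm26688 has a row in the table, and its exons cover 242 of the 250 bases of the Tfap2a window above. It was counted 10, 17 and 9 times in CH, 9, 20 and 8 times in 2i and at most 2 times in any other sample. Gata3 shared 5.83% and Gata6 1.43% of exon bases with genes that had at most 1 count in any sample. Tfap2b, Tfap2c, Tfap2e, Gata2 and Gata4 shared none.

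Tfap2a was high in both cultures with CHIR99021 and low in both without it. Its level was 25.3, 27.0 and 27.6 CPM in CH (26.6 ± 1.20, SD, n = 3) and 24.9, 24.9 and 22.6 CPM in 2i (24.1 ± 1.33). In DMSO it was 1.31, 1.47 and 1.54 CPM (1.44 ± 0.121) and in Fgf2/Activin 0.752, 0.657 and 0.695 CPM (0.702 ± 0.0477). The wild-type groups did not overlap, though the lowest CH sample and the highest 2i sample lay close together. By the fitted fold change CH was 18.5-fold DMSO and 2i was 34.2-fold Fgf2/Activin, while DMSO was 2.04-fold above Fgf2/Activin. In the Esrrb fl/fl cells, all of them in CHIR99021, Tfap2a was at 9.30, 11.2 and 11.0 CPM without 4OHT (10.5 ± 1.04) and at 1.70, 3.11 and 2.15 CPM after it (2.32 ± 0.719). By the fitted fold change the group without 4OHT was 4.51-fold higher, and both groups lay between the DMSO and the 2i samples. These contrasts led to the choice of Tfap2a, so no test is given.

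Tfap2c, the trophoblast and germ cell AP-2 factor, followed the same split with more spread. It was at 24.0, 25.4 and 24.4 CPM in CH (24.6 ± 0.737) and at 44.3, 21.6 and 22.8 CPM in 2i (29.6 ± 12.8), with replicate 1 of 2i above the other samples. In DMSO it was at 10.3, 2.72 and 2.62 CPM (5.23 ± 4.44), again with replicate 1 above the other two, and in Fgf2/Activin at 0.932, 1.45 and 1.01 CPM (1.13 ± 0.277). No DMSO or Fgf2/Activin sample reached the CH or 2i samples.

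Tfap2c passed the test as higher in CH than DMSO, by 2.22 ± 0.48 on the log2 scale (SE, n = 3 per group, edgeR adjusted p = 0.003546). Fitting only the samples numbered 2 and 3 of each group, an alternative chosen after the data were seen, gave 3.22. The call was lost without DMSO replicate 2 (1.91, adjusted p = 0.01431), DMSO replicate 3 (1.91, adjusted p = 0.01308) or CH replicate 2 (2.19, adjusted p = 0.01064) in the same edgeR test. Between 2i and Fgf2/Activin it was called higher in 2i by 4.71 ± 0.56 (edgeR adjusted p = 4.144e-05), and by 4.17 with only the samples numbered 2 and 3. Between 2i and CH the difference was 0.26 ± 0.46 (edgeR adjusted p = 0.8491), less than the spread between samples, and -0.15 without replicate 1 of 2i.

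Between Fgf2/Activin and DMSO the difference of Tfap2c was -2.23 ± 0.54 (edgeR adjusted p = 0.03892) and it was not called, although the 3 samples of each group did not overlap. With replicate 1 of every group left out it was -1.11 (edgeR adjusted p = 0.0005929) and passed. In the Esrrb fl/fl cells Tfap2c was at 18.9, 11.4 and 11.4 CPM without 4OHT (13.9 ± 4.31) and at 10.1, 6.60 and 8.27 CPM after it (8.33 ± 1.76). All samples after 4OHT were lower, but the log2 difference of -0.74 ± 0.23 (edgeR adjusted p = 0.02221) was not called.

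Tfap2e, an AP-2 factor of the olfactory system, was counted at most 21 times in a sample. It was at 0.211, 0.624 and 0.660 CPM in Fgf2/Activin (0.498 ± 0.250) and at 0.0348, 0.0590 and 0.0312 CPM in 2i (0.0417 ± 0.0151), which is 4 reads in all. It was called lower in 2i than in Fgf2/Activin, with a log2 fold change of -3.43 ± 0.84 (edgeR adjusted p = 0.005381). Tfap2e passed the filter on low counts only through DMSO and Fgf2/Activin samples, where it was higher, so the filter favoured this direction. In the fit without that filter the value was also -3.43 (edgeR adjusted p = 0.00339). By summed counts the Fgf2/Activin level was 11.5 times the 2i level, with an exact 95% interval of 4.20 to 44.1 that covers counting error only. With only the samples numbered 2 and 3 it was -3.70. The call was lost when any single sample of 2i, or replicate 2 or 3 of Fgf2/Activin, was left out, with edgeR adjusted p between 0.01674 and 0.02333 in those fits. DMSO (0.431 ± 0.355 CPM) and CH (0.226 ± 0.0782 CPM) overlapped. In the Esrrb fl/fl cells it was at 0.486 ± 0.0393 CPM without and 0.288 ± 0.126 CPM after 4OHT, too few counts for the fit.

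Tfap2b, an AP-2 factor of neural crest and kidney, was near absent from the counts, with 13 reads over the 18 samples. It had none in DMSO or Fgf2/Activin, which allows up to 0.0315 and 0.0325 CPM over the group, 5 reads in CH, 1 in 2i, 1 in the Esrrb fl/fl cells without 4OHT and 6 after it, and passed the filter on low counts in neither fit.

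**Figure D1:**
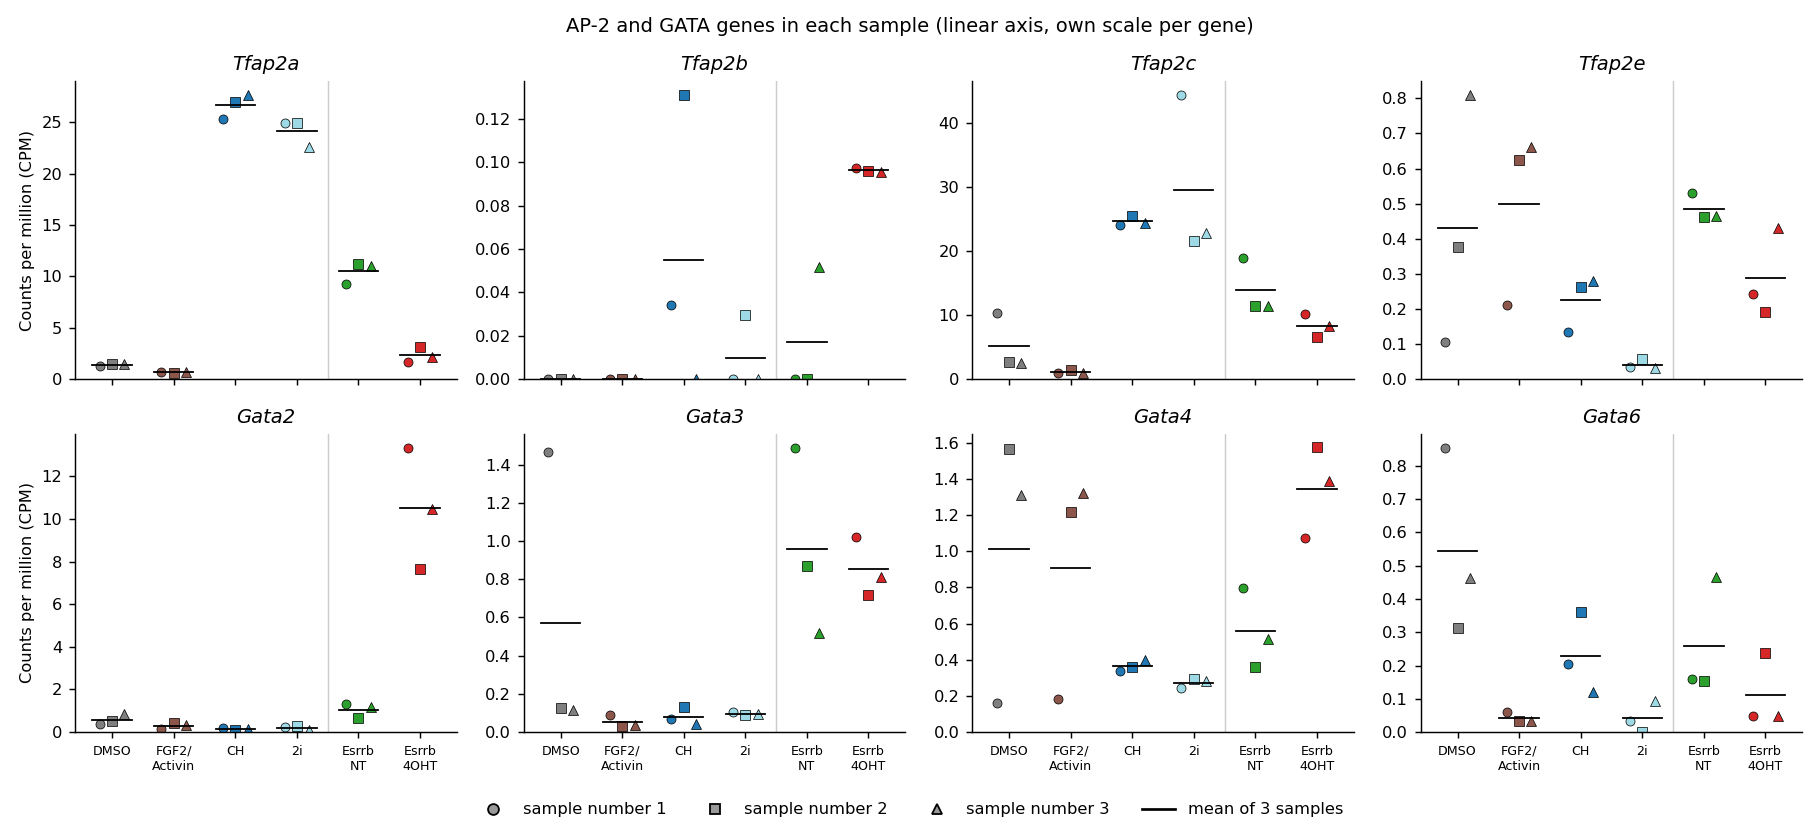
Level of each of the 8 genes in every sample, in CPM on a linear axis with its own scale per gene; colours are the 6 groups, marker shapes the replicate numbers and bars the means of 3 samples, with the Esrrb fl/fl cells right of the grey line. Tfap2a and Tfap2c are high in CH and 2i, and Gata2 reaches 7.66 to 13.3 CPM after 4OHT and at most 1.33 CPM in any other sample.

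Gata2, of trophoblast and blood stem cells, was called in the Esrrb fl/fl cells. After 4OHT it was at 13.3, 7.66 and 10.5 CPM (10.5 ± 2.84), from 274, 160 and 219 reads. Without 4OHT it was at 1.33, 0.666 and 1.19 CPM (1.06 ± 0.349), from 25, 13 and 23 reads. The groups did not overlap, and the gene was called higher after 4OHT by 3.30 ± 0.29 on the log2 scale, a fitted 9.85-fold (edgeR adjusted p = 3.027e-05), and by 3.28 with only the samples numbered 2 and 3. In the wild-type cultures it was low throughout, at 0.583 ± 0.235 CPM in DMSO, 0.308 ± 0.143 in Fgf2/Activin, 0.143 ± 0.0390 in CH and 0.211 ± 0.105 in 2i. The CH samples (5, 3 and 4 reads) lay below the DMSO samples (15, 16 and 22 reads), with a log2 fold change of -1.99 ± 0.52 that just missed the threshold (edgeR adjusted p = 0.01028). When replicates were blocked by number the difference was -1.97 and was called (edgeR adjusted p = 0.007133).

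Gata3, a trophoblast factor, was counted between 1 and 4 times in 11 of the 12 wild-type samples and 55 times in replicate 1 of DMSO. Its levels in DMSO were therefore 1.47, 0.125 and 0.116 CPM, and the summed count ratio of DMSO to CH of 7.89 (95% interval for counting error 3.61 to 20.4) rests on that sample. Gata3 did not pass the filter on low counts in the wild-type fit. In the Esrrb fl/fl cells it was at 1.49, 0.871 and 0.517 CPM without and 1.02, 0.718 and 0.813 CPM after 4OHT, overlapping, with a log2 difference of -0.17 ± 0.38 (edgeR adjusted p = 0.7258).

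Gata4, of the primitive endoderm, was counted 22, 33 and 29 times after 4OHT and 15, 7 and 10 times without it, or 1.35 ± 0.257 against 0.558 ± 0.222 CPM. It was called higher after 4OHT by 1.27 ± 0.32 on the log2 scale (edgeR adjusted p = 0.008371), and by 1.74 with only the samples numbered 2 and 3. Gata4 passed the filter on low counts only with the samples after 4OHT, where it was higher, so the filter favoured this direction. In the fit without that filter the value was 1.26 (edgeR adjusted p = 0.006493). DESeq2 did not call it (adjusted p = 0.02017), and in edgeR it was lost without replicate 2 or 3 of either group, with adjusted p between 0.02815 and 0.03616. In the wild-type cultures Gata4 was at 0.160, 1.57 and 1.31 CPM in DMSO and 0.180, 1.22 and 1.32 CPM in Fgf2/Activin, with replicate 1 low in both. CH (0.367 ± 0.0303 CPM) and 2i (0.273 ± 0.0265 CPM) lay between these values. No difference was called over all samples (CH against DMSO -1.44 ± 0.77, edgeR adjusted p = 0.1589; 2i against Fgf2/Activin -1.70 ± 0.79, edgeR adjusted p = 0.09561). With only the samples numbered 2 and 3, CH was lower than DMSO by 1.92 (log2 fold change -1.92, edgeR adjusted p = 9.042e-05) and 2i lower than Fgf2/Activin (-2.12, edgeR adjusted p = 3.889e-05).

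Gata6, the other primitive endoderm factor of the set, was counted 32, 10 and 12 times in DMSO, or 0.854, 0.313 and 0.463 CPM. In Fgf2/Activin it was counted 2, 1 and 1 times. The summed counts gave a ratio of DMSO to Fgf2/Activin of 13.1 (95% interval for counting error 4.83 to 49.8), and the fitted log2 fold change was -3.55 ± 0.71 (edgeR adjusted p = 0.01618, not called). When replicates were blocked by number it was -3.53 and was called (edgeR adjusted p = 0.006465). Gata6 passed the filter on low counts only through DMSO and CH samples, where it was higher, so the filter favoured this direction. In the fit without that filter the value was -3.54 (edgeR adjusted p = 0.01169) and was not called. In CH there were 6, 11 and 3 reads and in 2i 1, 0 and 3, a ratio of CH to 2i of 5.57 (1.87 to 22.4). The Esrrb fl/fl cells had 3, 3 and 9 reads without and 1, 5 and 1 after 4OHT, which overlapped and were too few for the fit.

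Calls over the 7 genes other than Tfap2a are given beside the share of all genes called, and rest on 4 or 5 genes tested in each comparison. Between CH and DMSO 5 of the 7 passed the filter on low counts, 1 (Tfap2c) was called higher and none lower, against 7.51% of the 16413 genes tested called higher and 10.2% lower. With the replicate block Gata2 was added as lower, where 2086 of all genes were called lower, against 1674 without the block. Between 2i and Fgf2/Activin 1 of 5 was called higher (Tfap2c) and 1 lower (Tfap2e), against 9.13% and 14.4% of all genes. Tfap2e and Gata2 passed the filter through DMSO and Fgf2/Activin samples, where they were higher, which favours calls in that direction. Gata6 passed it through DMSO and CH samples, which likewise favours calls of Gata6 as higher there. Between 2i and CH edgeR and DESeq2 called none of the 5, where edgeR called 0.317% of all genes higher in 2i and 1.67% lower. Gata6 and Tfap2e (2 genes) had an unadjusted edgeR p under 0.05, a looser threshold for which no share of all genes is given, so nothing is drawn from it. Between Fgf2/Activin and DMSO edgeR called none of the 5, against 0.902% of all genes higher in Fgf2/Activin and 0.347% lower. There DESeq2 called Gata6 and Tfap2c lower, beside 248 of the 16413 genes called higher in Fgf2/Activin and 126 lower by the same test. The block in edgeR called 1, Gata6, beside 275 genes higher and 149 lower. Gata6 and Tfap2c (2 genes) also had an unadjusted edgeR p under 0.05, for which no share of all genes is given. After 4OHT 2 of 4 were called higher (Gata2 and Gata4), against 12.8% of the 14893 genes tested higher and 3.87% lower. Of these, Gata4 passed the filter only with the samples after 4OHT, which favours a call as higher.

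The median log2 fold change of the genes tested was -1.23 between CH and DMSO, -0.53 between 2i and Fgf2/Activin, -0.41 between 2i and CH, -0.90 between Fgf2/Activin and DMSO and 0.55 after 4OHT. Over all genes it stayed within 0.03 of 0. The -1.23 is the value of Gata6, which was not called. Gata2 and Tfap2e reached at most 0.295 and 0.280 CPM in CH and 2i samples. They passed the filter on low counts through DMSO and Fgf2/Activin samples, which favours negative medians in the first 2 comparisons. No result is drawn from these medians. The 4 wild-type comparisons share groups with one another (DMSO, CH, 2i and Fgf2/Activin each enter 2 of them), so their values are not independent.

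**Figure D2:**
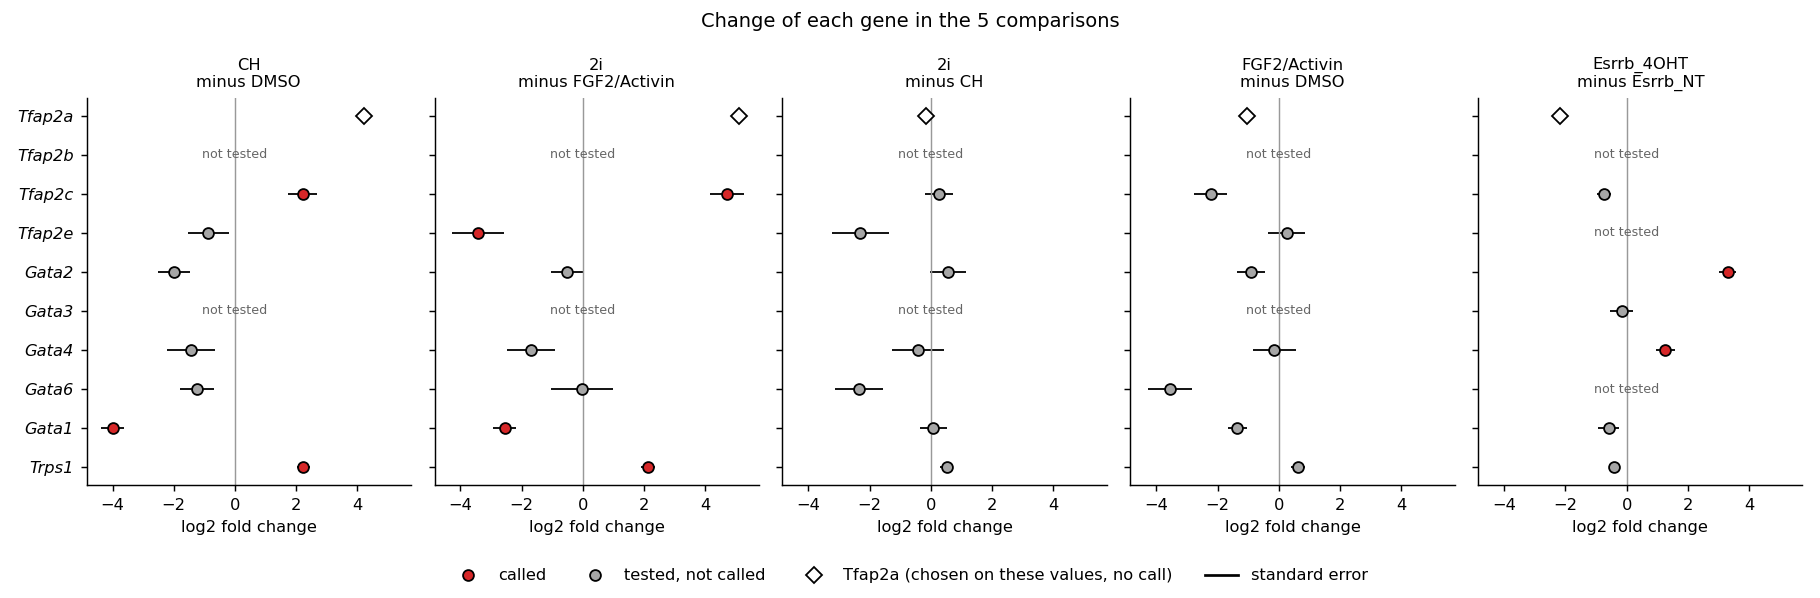
Fitted log2 fold change of each gene, and of the relatives Gata1 and Trps1, in the 5 comparisons; bars are standard errors, red circles were called, grey circles were tested and not called, and Tfap2a is an open diamond because it was chosen on these values. Tfap2c lies to the right in the first 2 panels, at 2.22 and 4.71, and Gata2 at 3.30 in the last.

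To compare genes with one another, levels were divided by exon length. Per kilobase, Tfap2c was the leading AP-2 gene in the mean of every group. In CH it made up 54.0% ± 1.10 (SD, n = 3) of the summed level of the 5 AP-2 genes and Tfap2a 43.9% ± 0.953, so both were near parity. After 4OHT Tfap2c made up 77.7% ± 7.20 and Tfap2a 17.0% ± 7.31, where they had made up 60.3% ± 8.58 and 35.6% ± 8.34 without it. The Tfap2a share was at most 25.0% after 4OHT and at least 26.0% without it. Tfap2a was chosen on these contrasts, so the shares and the AP-2 sums, which hold its values, are a description only. The summed AP-2 level was 12.4 ± 0.489 CPM per kilobase in CH and 13.0 ± 3.59 in 2i, against 1.92 ± 1.05 in DMSO and 0.689 ± 0.164 in Fgf2/Activin.

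The GATA family sum was lower in CH and 2i than in DMSO and Fgf2/Activin. The summed level of Gata1 to Gata6 was 1.85 ± 0.444 CPM per kilobase in DMSO and 0.805 in Fgf2/Activin, against 0.254 in CH and 0.222 in 2i. Gata1, not Gata2, Gata4 or Gata6, led it in DMSO (66.7% ± 6.74) and Fgf2/Activin (62.1% ± 20.3). In the Esrrb fl/fl cells the sum was 0.897 ± 0.148 without and 2.70 ± 0.459 after 4OHT, and the share of Gata2 was 21.7% ± 5.63 and 71.1% ± 7.52. The Gata2 samples after 4OHT all lay above those without it in share as well as in level.

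**Figure D3:**
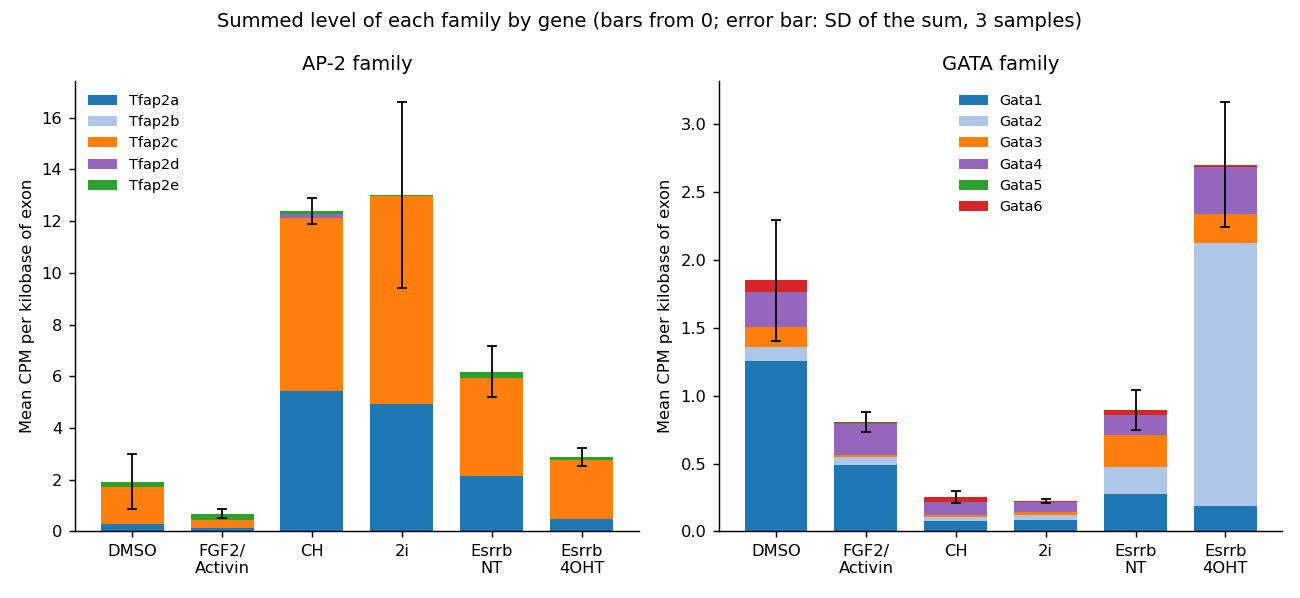
Mean level per kilobase of exon of each AP-2 gene (left) and each GATA gene (right), stacked by group from 0; error bars are the SD of the family sum over 3 samples. The AP-2 sum, which holds Tfap2a, the gene chosen on these contrasts, is largest in 2i and CH (13.0 and 12.4). The GATA sum is largest in the Esrrb fl/fl cells after 4OHT (2.70), where Gata2 is most of the bar.

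The relatives outside the set were also measured. Gata1, the erythroid GATA factor, was counted 157, 90 and 56 times in DMSO (3.06 ± 1.04 CPM) and 3, 7 and 6 times in CH (0.190 ± 0.0766 CPM). It was called lower in CH than in DMSO (log2 fold change -3.99 ± 0.38, edgeR adjusted p = 1.213e-05) and, in 2i against Fgf2/Activin, lower in 2i (-2.56 ± 0.37, edgeR adjusted p = 0.0001782). Gata1 passed the filter on low counts through DMSO and Fgf2/Activin samples, where it was higher, so the filter favoured this direction. With the block it was also called lower in Fgf2/Activin than in DMSO (-1.34, edgeR adjusted p = 0.00612, against 0.02921 without the block). Trps1, an atypical GATA protein known as a repressor, went the other way, from 3.52 ± 1.38 CPM in DMSO to 16.8 ± 0.202 in CH (2.24 ± 0.22, edgeR adjusted p = 1.836e-05), and from 5.52 ± 0.591 in Fgf2/Activin to 24.2 ± 2.02 in 2i (2.13 ± 0.22, edgeR adjusted p = 1.453e-05). Neither was called after 4OHT. Tfap2d was counted 5, 13 and 7 times in CH and at most 2 times in any other sample, and Gata5 had 2 reads in all.

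Partner proteins of these factors were taken from a list of 13, which held the AP-2 coactivators Cited1, Cited2 and Cited4 and the acetyltransferases Ep300 and Crebbp. It also held Kctd1 and Kctd15, which restrain AP-2, the GATA partners Zfpm1 and Zfpm2 (Fog1 and Fog2), and Lmo2, Lmo4, Ldb1 and Tal1 of GATA complexes. Between CH and DMSO 2 of 13 were called higher and 2 lower (15.4% each way), against 7.51% and 10.2% of all genes. With the replicate block 3 were called lower. Zfpm2 rose from 0.125 ± 0.0811 CPM in DMSO to 5.62 ± 3.07 in CH (log2 fold change 5.43 ± 0.77, edgeR adjusted p = 0.0002234), and Lmo2 rose by 2.33. Zfpm1 was lower in CH at 2.08 ± 0.568 against 11.0 ± 9.33 CPM (-2.41 ± 0.56, edgeR adjusted p = 0.005156), with DMSO replicate 1 at 21.8 CPM and the others at 5.57 and 5.71. Tal1 was also lower in CH (-5.12 ± 0.69, edgeR adjusted p = 0.0001511). Zfpm1, Zfpm2 and Tal1 were called in the same direction between 2i and Fgf2/Activin, where Cited1 was called higher in 2i (1.34). Lmo2 went the other way there (-1.31, edgeR adjusted p = 0.06203, not called) and was called lower in 2i with only the samples numbered 2 and 3 (-2.26).

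After 4OHT 5 of 12 partners were called higher (6 with the replicate block) and 1 lower, against 12.8% and 3.87% of all genes. The coactivator Cited1 was at 4.14, 2.36 and 1.97 CPM without and 30.6, 17.5 and 21.9 CPM after 4OHT (log2 fold change 3.05 ± 0.29, edgeR adjusted p = 4.536e-05). Cited2 rose from 24.9 ± 2.83 to 88.3 ± 4.03 CPM (1.83 ± 0.087, edgeR adjusted p = 2.16e-06) and Cited4 from 0.659 to 3.47 CPM (2.38). Zfpm1 (2.39) and Kctd1 (1.65) also rose, and Lmo4 was lower after 4OHT (-1.03). With only the samples numbered 2 and 3 Lmo4 was at -0.99 and not called, and Zfpm2 was called lower instead (-1.03). The median over the partners tested was 0.65, beside 0.002 over all genes.

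The lineages in which AP-2 and GATA factors act were followed with lists of marker genes from which the 8 were left out. Of 13 trophoblast markers tested, 5 were called higher and 2 lower (4 with the replicate block) in CH than in DMSO, against 7.51% and 10.2% of all genes. Cdx2, a trophoblast and posterior mesoderm factor, rose from 0.0932 ± 0.0820 to 63.8 ± 24.7 CPM (log2 fold change 9.49 ± 0.61, edgeR adjusted p = 8.898e-07), and Tead4 (1.74) and Bmp4 (2.04) rose, while Eomes (-2.08) and Ascl2 (-1.27) were lower. After 4OHT 6 of 12 were called higher (7 with the replicate block) and 1 lower, against 12.8% and 3.87% of all genes. Krt7, a keratin of trophoblast and other epithelia, rose from 0.312 ± 0.00591 to 6.28 ± 1.95 CPM (4.30 ± 0.33, edgeR adjusted p = 1.644e-05), Ets2 rose by 1.21 and Cdx2 by 1.11, and Bmp4 was lower (-1.29). The summed level of the 17 listed genes lay between 107.5 and 109.8 CPM without and between 129.6 and 140.4 CPM after 4OHT. Tpbpa, a marker of the spongiotrophoblast, had no count in any sample.

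Of 14 primitive endoderm markers tested, 3 were called higher and 7 lower in CH than in DMSO, where the shares over all genes were 7.51% and 10.2%. The endocytic receptor Lrp2 was at 222.5 CPM in DMSO and 10.3 in CH (-4.43 ± 0.17, edgeR adjusted p = 2.298e-08), the basement membrane collagens Col4a1 (-2.59) and Col4a2 (-1.86) were also lower, and the laminin Lama1 (2.67) was higher. After 4OHT 3 of 12 were called higher (4 with the replicate block) and 2 lower, where the shares over all genes were 12.8% and 3.87%. Col4a1 rose from 13.9 to 66.0 CPM (2.25) and Pdgfra from 0.625 to 2.82 CPM (2.16), while Hnf4a (-1.64) and Sox7 (-3.17) were lower. Ttr had no count in any sample.

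Of 10 surface ectoderm and epidermis markers, 1 was called higher in CH than in DMSO (Trp63, from 0.0193 to 2.00 CPM; 2 with the replicate block) and 5 lower, against 7.51% and 10.2% of all genes. The simple epithelial keratin Krt18 was at 136.0 ± 96.3 CPM in DMSO and 2.15 ± 0.756 in CH (-5.99 ± 0.62, edgeR adjusted p = 2.285e-05), and Krt8 and Epcam were also lower. After 4OHT 6 of 11 were called higher and 2 lower, against 12.8% and 3.87% of all genes, with Krt8 rising from 4.29 ± 1.68 to 138.8 ± 61.3 CPM (5.02 ± 0.37, edgeR adjusted p = 1.325e-05) and Krt19 and Krt18 by 5.31 and 4.41. These keratins are made by many simple epithelia, trophoblast included. Grhl2 was among the 2 called lower after 4OHT, from 116.0 to 49.1 CPM (log2 fold change -1.24, edgeR adjusted p = 7.479e-05). Krt5, a basal keratin of stratified epidermis, had no count in either group of Esrrb fl/fl cells.

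Of the neural crest markers, 1 of 8 tested was called higher in CH than in DMSO (Ngfr, 2.78) and 1 lower (Sox9, -2.70; 5 lower with the replicate block), and after 4OHT 4 of 5 were called higher and 1 lower. Over all genes 7.51% were higher and 10.2% lower in CH against DMSO, and 12.8% higher and 3.87% lower after 4OHT, which also stand beside the counts that follow. Those higher were Ngfr (1.17), Ets1 (3.02), Twist1 (1.33) and Snai2 (2.60), and the lower one was Foxd3 (-1.64), which is also a pluripotency factor. In the mesendoderm list 6 of 7 were called higher (7 with the replicate block) and none lower between CH and DMSO. In the Esrrb fl/fl cells 5 of 6 were called higher after 4OHT. T, the mesoderm factor Brachyury, was at 0.468 CPM in DMSO and 534.3 in CH, and at 42.9 CPM without and 402.4 after 4OHT. All 10 naive pluripotency genes were higher in CH against DMSO and called, and 3 of 10 (Klf2, Klf4 and Nr0b1) lower after 4OHT.

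Of the 6 genes of ES cell identity, 2 were called higher (Sox2 and Dppa5a) and 1 lower (Utf1) in CH than in DMSO, and 1 lower (Sox2) after 4OHT. The part of cells of other lineages in the levels of the AP-2 and GATA genes was not tested.

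**Figure D4:**
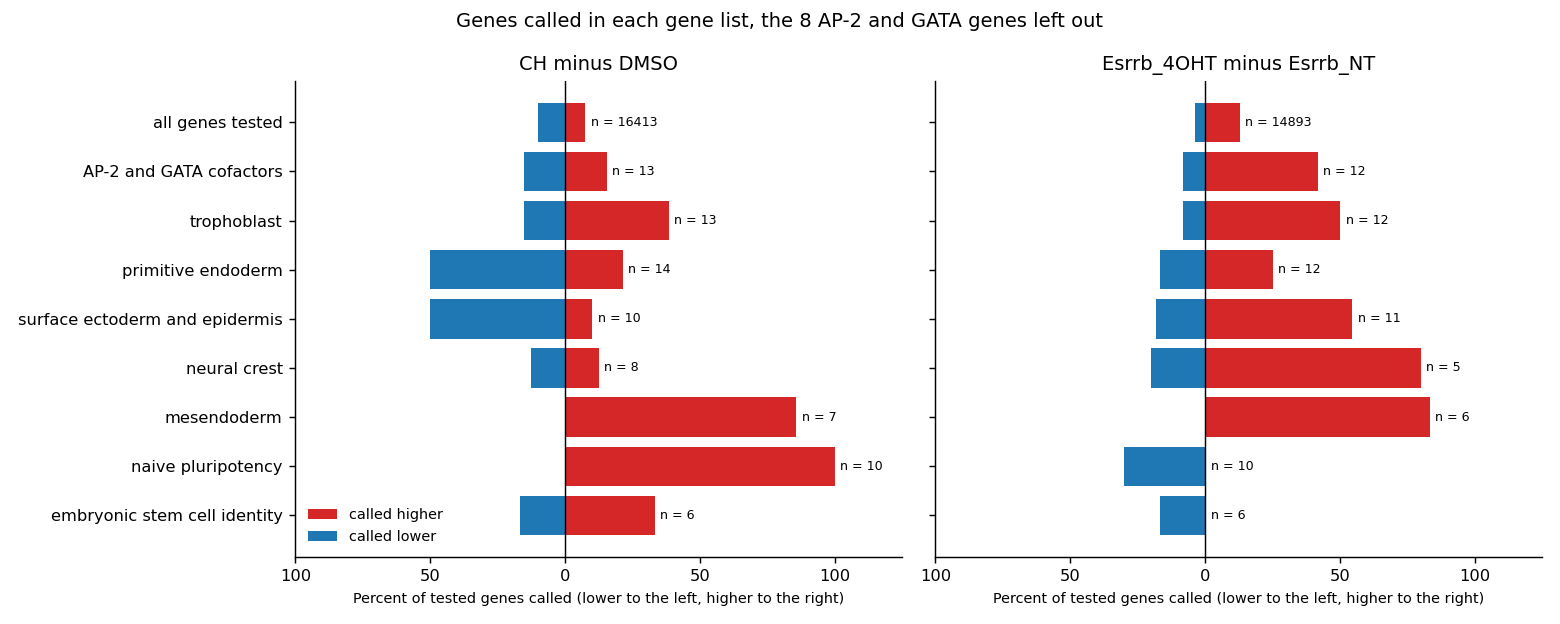
Percent of the tested genes of each marker list called higher (red, right) or lower (blue, left) between CH and DMSO and between Esrrb fl/fl cells after and without 4OHT, with the number tested beside each bar and all genes tested at the top. In CH against DMSO the naive and mesendoderm lists lie furthest to the right. After 4OHT the AP-2 and GATA cofactor, trophoblast, surface ectoderm, neural crest and mesendoderm lists lie to the right, as do all genes tested (12.8% higher and 3.87% lower).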

How the data were processed

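The 18 RNA sequencing samples fall into 6 groups of 3, as their titles say. The authors used TopHat2 and mm10 for alignment and HTSeq, set to ignore strand, for counting on the Ensembl genes of GRCm38, and deposited the raw whole-number counts of 49671 genes. The Ensembl release is not given in the sources used here. Symbols and positions came from GENCODE M21 (49326 identifiers matched) and promoters from RefSeq.

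Counts were tested with edgeR 4.0.16 (limma 3.58.1, R 4.3.3): TMM scaling, filterByExpr, glmQLFit and glmQLFTest, with the 12 wild-type samples in one fit (16413 genes) and the 6 Esrrb fl/fl samples in another (14893). Of the 8 genes, 6 passed the filter in the first fit and 5 in the second. Calls used the thresholds of the study's methods, an adjusted p under 0.01 and a log2 fold change over 1. The tests were run first on simulated data. Ratios of summed counts have exact 95% intervals for counting error, a count of 0 allows up to 3 counts over the group, and reads are not single molecules.

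Replicate numbers are in the sample titles. Same-numbered samples deviated together in every pair of groups (mean correlation 0.57, lowest 0.37, wild type, 12376 genes, and 0.42, lowest 0.35, Esrrb fl/fl, 11478 genes). Samples 2 and 3 did so across numbers too, as DMSO 3 with CH 2 (0.54) beside DMSO 3 with CH 3 (0.48). Deviations were taken from group means of 3, so replicate 1 standing apart is enough to give such correlations. They do not show that samples 2 and 3 were paired by number. The block by number is thus an alternative, given beside a result where it changes a call.

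Alternatives were DESeq2 1.42.0 (its size factors or its test), no filter, at least 10 counts in every sample, glmTreat, no minimum fold change, the 6 compared samples fitted alone, the block, each sample left out, and, added after seeing the data, only the samples numbered 2 and 3. The 8 genes and all lists were chosen with earlier results of these data known. Genes named are the 8, their relatives, up to 6 per list with the highest level among those called, and the 3 most correlated with each gene that passed both filters.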

Additional observations from a re-analysis of the deposited data

How the results depend on the processing

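Of 306 log2 fold changes of the 7 genes other than Tfap2a under alternatives, 265 kept their direction and their side of the threshold, 17 lost the call, 10 gained it and 14 changed sign. The number of the 7 other genes called between CH and DMSO, 1, was 2 with DESeq2's test, 2 with the replicate block, 0 with glmTreat (edgeR's test beyond a log2 change of 1), 0 in a fit of only the 6 samples compared, 3 with only the samples numbered 2 and 3, and 0 to 2 with single samples left out. Of the 2 called between 2i and Fgf2/Activin, 1 was called with at least 10 counts in every sample, 1 with glmTreat, 1 with only the 6 samples compared, 3 with only the samples numbered 2 and 3, and 1 to 2 with single samples left out. Between Fgf2/Activin and DMSO, where edgeR called 0, DESeq2 called 2, the replicate block 1 and the samples numbered 2 and 3 gave 1. Of the 2 called after 4OHT, 1 was called with at least 10 counts in every sample, 1 with DESeq2, 1 with glmTreat, and 1 to 2 with single samples left out. The replicate block, beyond adding Gata2 between CH and DMSO and Gata6 between Fgf2/Activin and DMSO, changed no call of these genes. At least 10 counts in every sample removes low genes from the test. The causes of the other changes were not tested.

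Signs changed only in uncalled differences of low or variable genes. Gata6 between 2i and Fgf2/Activin was 0.0118 with the replicate block, 0.39 with the samples numbered 2 and 3, and -1.22 to 0.57 with single samples left out. Tfap2c between 2i and CH was -0.16 with the samples numbered 2 and 3 and -0.15 to 0.45 with single samples left out. Gata3 after 4OHT was 0.14 with the samples numbered 2 and 3 and -0.47 to 0.28 with single samples left out. Between Fgf2/Activin and DMSO, leaving out single samples gave -0.24 to 1.06 for Tfap2e and -0.68 to 0.35 for Gata4. Over all genes, the 2907 called between CH and DMSO ranged from 1308 (glmTreat) to 3802, the 3857 between 2i and Fgf2/Activin from 2231 to 4541, the 326 between 2i and CH from 47 to 768, the 205 between Fgf2/Activin and DMSO from 57 to 499, and the 2485 after 4OHT from 967 to 2771, and without a minimum fold change they were 4750, 6193, 464, 295 and 6621. For Tfap2b, Tfap2e, Gata3 and Gata6 the counts per sample, mostly under 40, limit what can be told apart at this depth.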

Other observations

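The genes whose levels were most like those of the AP-2 and GATA genes over the 18 samples, in log2(CPM + 1) among the 14535 genes in both fits, are given as a description. Samples of a group share their treatment, and the samples fall into separate groups, so the correlation coefficients mostly reflect the 6 group means. For Tfap2a they were Agk (r = 0.98), a lipid kinase of the mitochondrion, Mymx (0.97), a membrane fusion protein of muscle, and Bdh1 (0.97), an enzyme of ketone body metabolism. Mymx was at 0.924 CPM in DMSO and 1.12 in Fgf2/Activin, 25.1 in CH and 35.1 in 2i, and at 13.9 CPM without and 2.97 after 4OHT. For Tfap2c they were Arid5b and Slc25a36 (both 0.96) and Mdm4 (0.95), and Tfap2a and Tfap2c had r = 0.89 with each other.

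For Gata2 the most similar genes were the imprinted RNA H19 (0.98), Apob, an apolipoprotein (0.98), and Copb2, a coat protein of Golgi vesicles (0.98). H19 was at 1.73 CPM without and 12.1 after 4OHT, and at most 0.385 CPM in the mean of any wild-type culture. Apob was at 1.06 CPM without and 7.01 after 4OHT. Copb2 moved far less, from 228.9 to 292.4 CPM. For Gata4 they were Twist1 (0.92), a mesenchymal and neural crest factor, Nap1l5 (0.90) and Pdgfd (0.88). These genes were chosen by their similarity and no test is attached to them.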
